A study of Mus musculus with 13 samples.

Results

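The genes described here encode the cell's oxygen sensing system: the HIF prolyl hydroxylases Egln1, Egln2 and Egln3 (the proteins PHD2, PHD1 and PHD3), the ubiquitin ligase subunit Vhl, the HIF alpha subunits Hif1a and Epas1, and the asparaginyl hydroxylase Hif1an (FIH). The measurement was 5-hydroxymethylcytosine (5hmC), read by shallow tet-assisted bisulfite sequencing (TAB-seq) and deposited as the 5hmC percentage of 300 kb bins. In TAB-seq 5hmC is shielded by a sugar and 5-methylcytosine is oxidised, so that after bisulfite treatment cytosine reads mark 5hmC. Each gene was represented by the bin that its body overlaps, so the 7 genes gave 7 bins of the 8576 kept for analysis and of 9097 in all. The genes were chosen by name and place and not by their values, though with earlier results of these data known. Each gene body lay inside 1 bin.

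The samples were 13 breast tumours of FVB mice, all driven by the polyoma middle T oncogene (PyMT), with 1 tumour per mouse as titled. In one model the mice were 16 weeks old and either PHD2+/+ (called wild type, n = 3) or Phd2+/- (heterozygous, n = 4), a genotype that the labels describe as restoring tumour vessels and oxygen. In the other the mice were 12 weeks old, carried no Phd2 allele change in their labels, and had been injected hydrodynamically with the empty PRRL2 plasmid (empty vector, n = 3) or with PRRL2-sFlk1 (n = 3), which encodes a soluble VEGF receptor and is described as making tumours more hypoxic. Age, plasmid injection and model cannot be told apart, so levels were compared within a model. DNA came from whole tumours, so a change in the mix of cell types and a change within cells cannot be told apart, and 5hmC cannot check the labelled tissue as expression markers would. Without read counts in the table used here, the depth of each bin is unknown and no counting interval can be given.

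As background, the EGLN enzymes attach a hydroxyl group to prolines of HIF alpha subunits when oxygen is present, VHL then binds the marked subunit and has it degraded, and in low oxygen the subunit escapes, pairs with ARNT and switches on hypoxia genes. FIH hydroxylates an asparagine of HIF alpha and blocks its contact with the co-activators p300 and CBP. The EGLN enzymes and FIH are iron and 2-oxoglutarate dependent dioxygenases, the same enzyme class as the TET proteins that make 5hmC from 5-methylcytosine, and several of the genes, among them Egln3 and Egln1, are themselves induced by HIF. In many tissues 5hmC is higher over the bodies of active genes than between genes.

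In most tissues 5hmC sits mainly at CpG dinucleotides, and the start regions of the 3 prolyl hydroxylase genes differed widely in how many they hold. RefSeq promoters (GRCm38.p6) matched 6 of the 7 genes, all but Epas1. The 250 bases before the start are shown for the 3 paralogues, 5′ to 3′ on the gene's strand, with every CpG in capitals. The windows are chr8:124949255-124949504 for Egln1, chr7:27166803-27167052 for the outer of 2 listed starts of Egln2, and chr12:54203875-54204124 for Egln3, all on the minus strand.
Egln1: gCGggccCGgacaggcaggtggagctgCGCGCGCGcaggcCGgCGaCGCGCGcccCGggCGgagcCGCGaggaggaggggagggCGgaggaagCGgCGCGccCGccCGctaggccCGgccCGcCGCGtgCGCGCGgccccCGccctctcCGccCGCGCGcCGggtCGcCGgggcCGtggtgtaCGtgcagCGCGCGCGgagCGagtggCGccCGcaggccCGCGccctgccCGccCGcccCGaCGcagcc
Egln2: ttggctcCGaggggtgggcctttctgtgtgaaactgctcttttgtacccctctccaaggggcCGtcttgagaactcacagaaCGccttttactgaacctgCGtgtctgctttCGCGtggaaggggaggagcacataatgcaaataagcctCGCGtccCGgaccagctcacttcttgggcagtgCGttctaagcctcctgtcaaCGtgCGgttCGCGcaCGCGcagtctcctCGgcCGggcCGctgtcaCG
Egln3: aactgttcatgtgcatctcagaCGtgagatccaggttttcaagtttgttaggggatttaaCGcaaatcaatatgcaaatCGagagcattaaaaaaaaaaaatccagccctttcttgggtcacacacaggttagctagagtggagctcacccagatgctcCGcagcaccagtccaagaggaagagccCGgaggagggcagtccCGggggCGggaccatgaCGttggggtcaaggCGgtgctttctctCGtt
Egln1 held 51 CpGs in this window, more than 99.9% of the 32851 promoters in the table, while Egln2 held 20 at its outer start and Egln3 10, against a median of 6 over all promoters. The inner start of Egln2 had 4 CpGs and 1 match to the motif described next, so the place of Egln2 in this order depends on the start. The ratio of observed to expected CpGs was 1.10, 0.914 and 0.627 in that order. Vhl (20 CpGs), Hif1a (14) and Hif1an (12) lay between Egln1 and Egln3 or level with Egln2. The Hif1a window (chr12:73907617-73907866) lies inside its gene body, which begins at 73901324, so the counts for Hif1a belong to an inner start. The core of the HIF binding motif, spelled ACGTG or GCGTG and searched on both strands, had 2 matches at Egln1, 4 at the outer start of Egln2, 1 at Egln3, 3 at Hif1a and 0 at Vhl and Hif1an. At least 1 match was present in 38.6% of all promoters. The sequence CACGTG counts as ACGTG on both strands, so 2 of the 3 matches at Hif1a are 1 site. Each window is a very small part of a 300 kb bin, so the 5hmC values that follow do not resolve it.

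The share of the bin that each gene occupies set how far a value speaks for the gene. Epas1 filled 26.5% of its bin, Hif1a 15.4% and Egln1 13.6%, but Egln3 filled 8.30%, Hif1an 4.47%, Egln2 2.72% and Vhl 2.55%. The bin of Vhl was gene-rich, with 15 protein-coding genes (Fancd2, Brk1, Irak2 and Creld1 among them) covering 80.9% of its length. Egln2 shared its bin with 10 other protein-coding genes, including Rab4b, Itpkc and Cyp2f2. Egln1 shared its bin with 7, including Disc1, Tsnax and Gnpat. In the bin of Epas1 there were 5 others, among them Rhoq and Pigf, and in that of Hif1an 4, among them Scd1 and Ndufb8. Hif1a had Snapc1 and Syt16 beside it, and Egln3 had part of Npas3, a transcription factor gene. Gene bodies covered 32.4% of the bin of Egln3, and Npas3 made up more of this than Egln3 did. Every value below belongs to the bin and to all genes in it.

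Across all 13 tumours the bins of the oxygen sensing genes were rich in 5hmC, apart from Hif1an. The highest means were 5.05% ± 1.57 (SD, n = 13) at Egln3, 4.99% ± 1.22 at Vhl and 4.84% ± 1.76 at Egln1, followed by 4.48% ± 1.17 at Epas1. Hif1a (3.74% ± 0.703) and Egln2 (3.71% ± 0.815) were intermediate, and Hif1an was lowest with 2.41% ± 0.610. The median of these 7 bins was 4.48%, against 2.36% over all bins and 2.89% over bins with a protein-coding gene. Egln3, Vhl, Egln1 and Epas1 exceeded 90.7%, 90.3%, 88.7% and 84.4% of all bins, while Hif1an lay at the middle, above 50.9%.

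The levels were also set against bins with the same number of protein-coding genes. The 1153 bins that hold 2 protein-coding genes, as that of Egln3 does, had a median of 2.78%, and Egln3 exceeded 87.3% of them. Hif1an lay on the other side, above only 26.9% of the 468 bins with 5 protein-coding genes, whose median was 3.46%. Matched instead by the share of the bin that gene bodies cover, Hif1an was average: it exceeded 48.7% of 552 bins, whose median was 2.47%. By gene count Vhl exceeded 90.9%, Egln1 84.3%, Epas1 74.4%, Egln2 59.3% and Hif1a 59.1% of the matched bins. By gene-body cover the shares were 92.7% at Egln3, 79.0% at Epas1, 79.0% at Egln1, 77.9% at Vhl, 63.1% at Egln2 and 53.8% at Hif1a.

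Neighbours in the order of levels mostly did not differ beyond their spread. Egln3 lay above Vhl in 6 of 13 tumours, Vhl above Egln1 in 7, Egln1 above Epas1 in 7, Epas1 above Hif1a in 9 and Hif1a above Egln2 in 8. The 1 clear step was at the bottom. Egln2 exceeded Hif1an in all 13 tumours, by 1.30 percentage points on average (SD 0.935), and so did each of the other 5 genes. Hif1an was above the genome-wide mean of its own tumour in 5 of 13 tumours. Egln1, Egln2, Vhl and Epas1 were above it in 13, and Egln3 and Hif1a in 12.

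**Figure D1:**
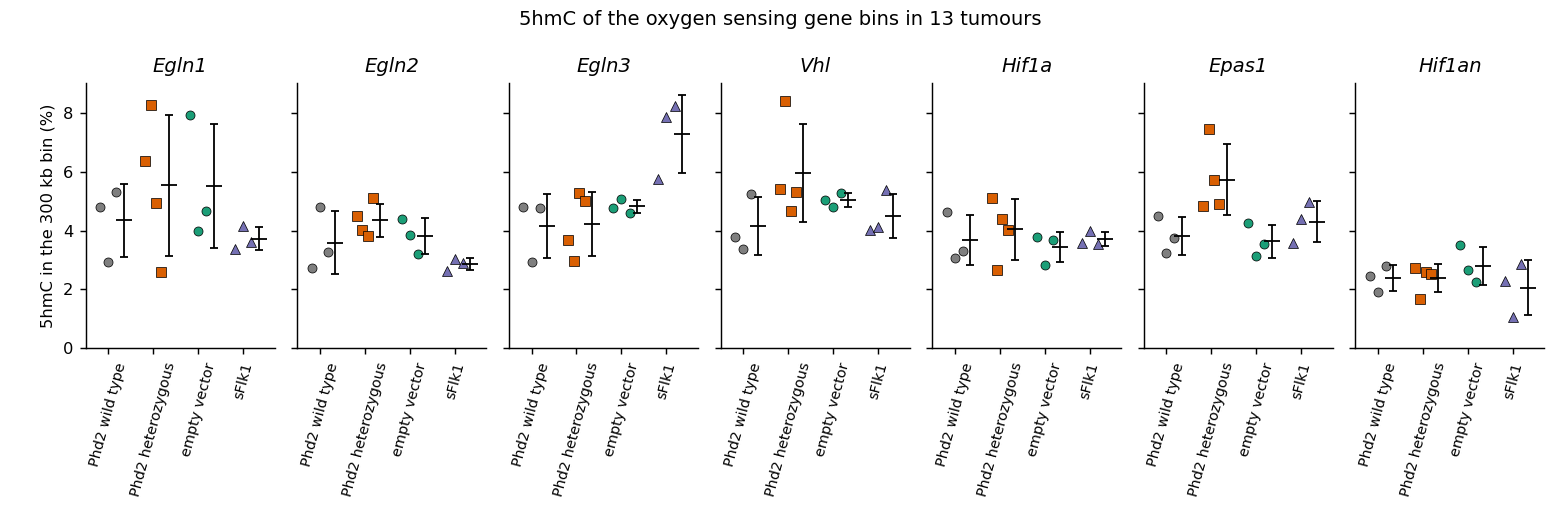
5hmC percentage (vertical axis) of the bins of the 7 genes in each of 13 tumours, by group; each point is 1 tumour, and the bar and whiskers are the group mean ± SD. The 3 sFlk1 tumours stand above all others at Egln3 (5.76% to 8.24%), the 4 heterozygous tumours above the 3 wild-type tumours at Epas1, and Hif1an stays at or below 3.51% in all 13.

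The genes did not share 1 profile over tumours. Among the 21 pairs of genes, the correlation of percentages over the 13 tumours had a median Pearson r of 0.0660 and was above 0 in 12, as a description without a test. The pair most alike was Vhl and Epas1 (r = 0.746, Spearman's rho = 0.516), and the most opposed was Egln2 and Egln3 (r = -0.576, rho = -0.604). Divided by each tumour's genome-wide mean, which both genes of a pair share, the median r was -0.0469 and 7 pairs were above 0. Heterozygous tumour 2, the tumour with the highest genome-wide 5hmC (3.17%), was the highest of 13 at 3 genes (Egln1, Vhl and Epas1) and the lowest at Hif1a, with 2.65%.

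For each gene the bins with the most similar values over the 13 tumours were sought on other chromosomes, among 5619 to 5813 bins. They were those of Ptpn4 (r = 0.925, rho = 0.940) and Kdm6a (r = 0.925, rho = 0.945) for Egln1, Ift80 (r = 0.862) and Pdpk1 (r = 0.833) for Egln2, and Iqub (r = 0.836) and Gm27021 (r = 0.833) for Egln3. For Vhl they were Akap7 (r = 0.918, rho = 0.720) and Mib1 (r = 0.907), for Hif1a Fkbp15 (r = 0.816) and Csmd1 (r = 0.749), for Epas1 Arid5b (r = 0.925) and Bzw2 (r = 0.924), and for Hif1an Mgat5b (r = 0.859) and Hgf (r = 0.846). Each r was picked as the highest among all bins compared, and all bins of a tumour share its genome-wide level, so r is given as a description.

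Along the chromosome, the bin of Vhl was a local high point. The bin of Vhl exceeded both adjacent bins in all 13 tumours (4.99% against 3.65% and 1.72%), and that of Egln1 in 10 (4.84% against 2.87% and 3.36%). The mean at Egln2 also lay above both adjacent bins (3.71% against 2.98% and 3.10%), which held in 6 of 13 tumours. Of all bins with both neighbours kept, 27.4% had a mean over the 13 tumours above both. No such share was taken for the counts of tumours. Egln3 lay next to a higher bin without a protein-coding gene (6.20%). Hif1an, at 2.41%, lay on a slope from 5.66% to 1.58% and ranked 18 of the 21 bins within 3 Mb on each side. Hif1a ranked 14, Egln1 and Egln2 7, Epas1 6, Egln3 5 and Vhl 4.

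**Figure D2:**
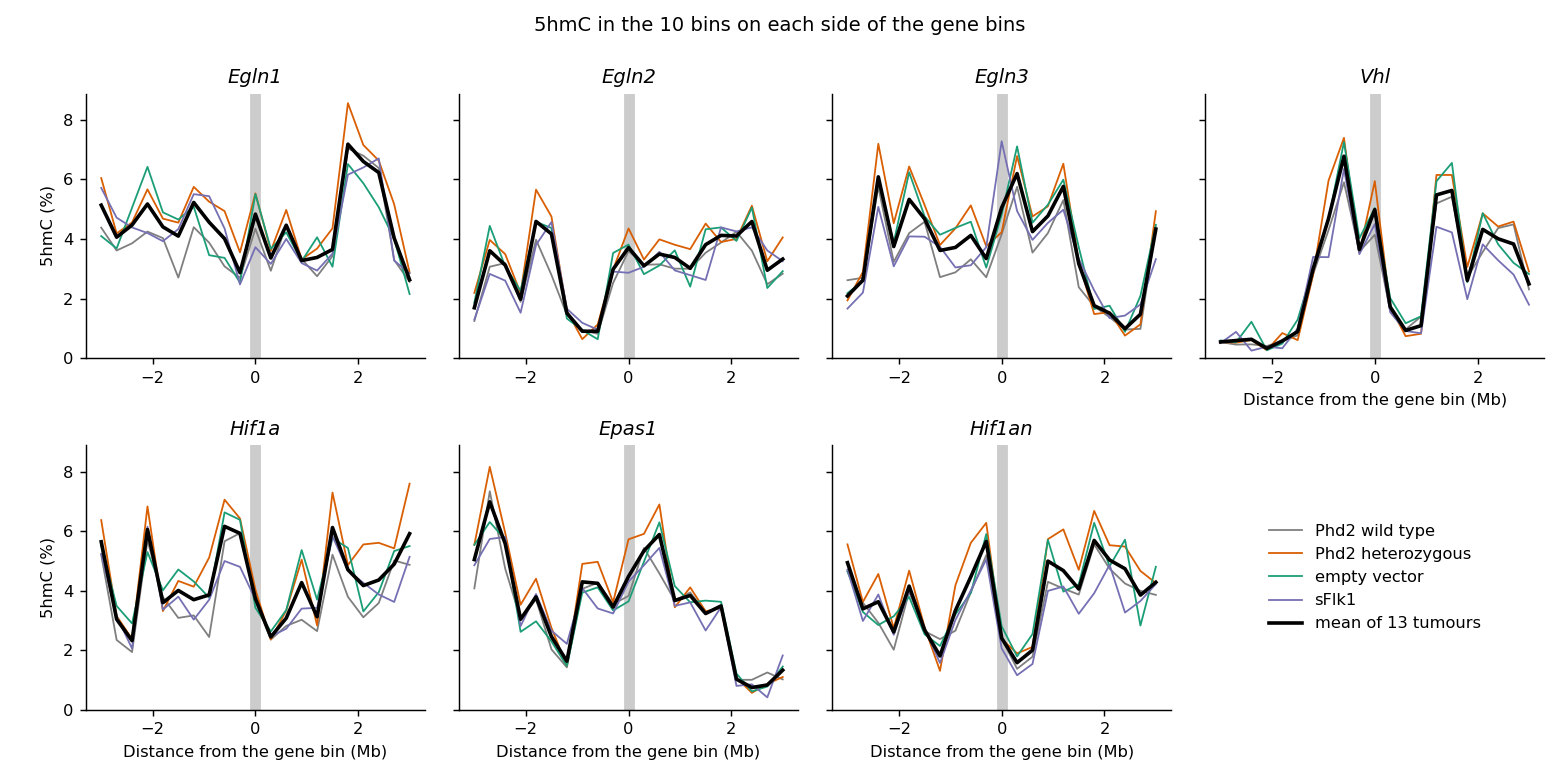
Mean 5hmC percentage (vertical axis) of each group and of all 13 tumours against distance in Mb from the bin of each gene (grey band), over 10 bins on each side. The black peak at Vhl stands above both adjacent bins, and at Egln3 the sFlk1 line (7.28%) leaves the other 3 groups (4.16% to 4.82%) upward in the gene's own bin, and lies below them (4.94% against 5.75% to 7.11%) in the next bin to the right.

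The Phd2 comparison asks whether 5hmC at these genes differs with a genotype that the labels describe as restoring tumour oxygen. The means were higher in heterozygous tumours at 6 of the 7 genes, by 0.0665 to 1.90 percentage points, and widest at Epas1 and Vhl. No gene passed: limma called 0 of 7 at an adjusted p under 0.05 over all bins, as it called 0 of 8576 bins (0%), and the lowest adjusted p among the 7 was 0.357. At an unadjusted p under 0.05 there were 2 of 7 (Epas1 and Vhl, both higher), against 10.8% of all bins, and the exact permutation test had 0 of 7 under 0.05. The share with a higher mean is close to the background: 75.1% of all bins were higher in heterozygous tumours, and 95.3% of those in the highest of 5 level classes, to which Egln1, Egln3, Vhl and Epas1 belong, and 90.4% in the class below it, with Egln2 and Hif1a. The median difference was 0.762 percentage points over the 7 bins and 0.385 over all bins. By level it was 1.25 over all bins of the highest class, 0.805 in the class below it and 0.421 in the middle class, with Hif1an. The median of the 7 bins was thus not above that of the 2 highest classes. The shares given for unadjusted p, and below for groups without overlap, were taken over all bins and not by level.

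Of the 7 genes Epas1 had the largest difference, though it did not pass. It encodes HIF-2α, the subunit prominent in endothelial cells. Its bin held 4.84%, 7.45%, 5.72% and 4.90% in heterozygous tumours 1 to 4 and 4.50%, 3.22% and 3.76% in wild-type tumours 1 to 3. Every heterozygous tumour lay above every wild-type tumour, which was true of 11.0% of all bins. Heterozygous tumours averaged 5.73% ± 1.21 (SD, n = 4) and wild-type tumours 3.83% ± 0.639 (SD, n = 3), a difference of 1.90 percentage points (SE 0.724, limma adjusted p = 0.357, exact permutation p = 0.0857). Hif1a, which encodes HIF-1α, gave 5.11%, 2.65%, 4.39% and 4.01% against 4.64%, 3.07% and 3.30%. These groups overlapped over nearly their whole range, and the difference of 0.369 (SE 0.657) did not pass (limma adjusted p = 0.857, exact permutation p = 0.629). It was 0.0138 without heterozygous tumour 1 and 0.856 without wild-type tumour 1.

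Vhl, whose product recognises hydroxylated HIF alpha, held 5.42%, 8.38%, 4.66% and 5.31% in heterozygous and 3.79%, 3.39% and 5.25% in wild-type tumours. Wild-type tumour 3 lay inside the heterozygous range and heterozygous tumour 2 far above the rest. The difference was 1.80 percentage points (SE 0.821, limma adjusted p = 0.437, exact permutation p = 0.143), and 0.987 without heterozygous tumour 2. It was larger than in any of the 20 bins around Vhl, where the median difference was 0.106. Those bins had a median level of 2.55% and reached down to 0.324%, and the lowest leave little room for a difference of this size. Among all bins of its level class the median difference was 1.25, and Vhl exceeded 75.2% of them. At Epas1, 1 of the 20 surrounding bins had a larger difference, and their median was 0.323. Within the same level class Epas1 exceeded 79.4% of bins.

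Egln1, the gene deleted on 1 allele in these mice, gave 6.37%, 8.26%, 4.92% and 2.58% against 4.80%, 2.94% and 5.30%. A bin of this width does not check the genotype. Heterozygous tumours held both the highest and the lowest of all 13 values, and the means of 5.53% ± 2.39 (SD, n = 4) and 4.34% ± 1.24 (SD, n = 3) did not differ beyond that spread (difference 1.19, SE 1.03, limma adjusted p = 0.679, exact permutation p = 0.486). The difference was 0.281 without heterozygous tumour 2 and 2.17 without heterozygous tumour 4. The within-group SD of Egln1, 1.72 percentage points, was exceeded by 3.90% of the bins in its level class, whose median was 1.05.

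The other prolyl hydroxylase genes differed less. Egln2, which encodes PHD1, gave 3.81% to 5.09% in heterozygous and 2.71% to 4.80% in wild-type tumours (difference 0.762, SE 0.636, limma adjusted p = 0.663). The difference was 0.323 without wild-type tumour 1 and 1.36 without wild-type tumour 2. At Egln3 the ranges were 2.96% to 5.27% and 2.92% to 4.78%, with means of 4.23% and 4.16%. Its difference of 0.0665 (SE 0.800) was smaller than in 17 of its 20 surrounding bins, whose median was 0.967. Hif1an was the 1 gene with a lower mean in heterozygous tumours, 2.38% ± 0.477 against 2.39% ± 0.450, a difference of -0.0168 (SE 0.555). In 19 of the 20 bins around it the mean was higher in heterozygous tumours.

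The 7 bins followed the genome-wide mean of their tumours to unequal degrees. Over the 13 tumours, as a description, r with it was 0.817 at Egln1, 0.786 at Vhl and 0.746 at Epas1, but 0.290 at Egln2, 0.148 at Hif1an, 0.0884 at Hif1a and -0.283 at Egln3, against a median of 0.341 over bins above 0 in all tumours. The genome-wide mean was 2.54% to 3.17% in heterozygous and 2.18% to 2.42% in wild-type tumours. Divided by it, Epas1 held 1.99 ± 0.291 times the mean of its tumour in heterozygous and 1.63 ± 0.198 times in wild-type tumours (exact permutation p = 0.143), Vhl 2.06 ± 0.428 and 1.76 ± 0.358 times (0.371), and Egln1 1.88 ± 0.674 and 1.84 ± 0.441 times (0.971). On that scale 3 of the 7 genes (Egln1, Vhl and Epas1) were higher in heterozygous tumours and 4 lower. Of the bins of cell type marker genes limma called 0. Of the 4 luminal genes 3 had a higher mean in heterozygous tumours, 2 of them (Krt8 and Krt18) through 1 shared bin. So did 3 of 3 leukocyte, 3 of 3 fibroblast and 2 of 4 endothelial genes, against 75.1% of all bins. The mean over the luminal marker bins was 4.93% to 5.61% in heterozygous and 3.13% to 4.83% in wild-type tumours, over leukocyte marker bins 2.93% to 4.04% and 1.45% to 2.78%, over fibroblast marker bins 3.08% to 4.23% and 2.43% to 3.16%, and over endothelial marker bins 3.15% to 4.61% and 3.10% to 4.02%. Their part in the result was not tested.

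The sFlk1 comparison turns to tumours that the labels describe as made more hypoxic. Here the prolyl hydroxylase genes went different ways: Egln3 had a higher mean in sFlk1 tumours, and Egln1 and Egln2 a lower one. Of the 7 genes 3 were higher and 4 lower, and limma called 0 of 7, against 0.0117% of all bins (1 bin). The lowest adjusted p was 0.544. At an unadjusted p under 0.05 there was 1 of 7 (Egln3), against 7.18% of all bins, and the exact test could not go below 0.10 with 3 tumours against 3. The median difference was -0.536 percentage points over the 7 bins and -0.146 over all bins, of which 59.5% were lower and 40.3% higher in sFlk1 tumours. By level the median was -0.578 over all bins of the highest class, -0.324 in the class below it and -0.204 in the middle class.

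Egln3 encodes PHD3, a hydroxylase strongly induced by HIF, but part of Npas3 covers more of the bin than Egln3 does. The bin of Egln3 held 5.76%, 7.85% and 8.24% in sFlk1 tumours and 4.78%, 5.07% and 4.61% in empty vector tumours. All 3 sFlk1 tumours lay above all 3 empty vector tumours, and also above the 7 tumours of the Phd2 model, whose highest value was 5.27%. The difference was 2.46 percentage points (SE 0.855), from 4.82% ± 0.234 to 7.28% ± 1.33 (SD, n = 3 each), or 51.1%. It did not pass after adjustment over all bins (unadjusted limma p = 0.00772, adjusted p = 0.544), and the exact permutation p was 0.10, the smallest possible. Of the 8576 bins, 1 had a larger positive difference. Groups that do not overlap with sFlk1 higher were seen in 3.43% of all bins, and in the highest level class 26.4% of bins had a higher mean in sFlk1 tumours (34.1% in the class below it). Relative to the genome-wide mean, Egln3 held 2.95 ± 0.467 times in sFlk1 and 1.80 ± 0.137 times in empty vector tumours. Fibroblast marker bins, of which limma called 0 of 3, averaged 3.24% to 3.82% against 2.21% to 2.89%, while luminal (3.53% to 4.91% against 3.89% to 5.32%), endothelial (2.79% to 3.69% against 3.07% to 3.85%) and leukocyte marker bins (2.26% to 3.31% against 2.41% to 3.67%) overlapped. Their part in the result was not tested.

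The difference at Egln3 was larger than in any of the 20 bins around it, where the median was -0.596 and 17 were lower in sFlk1 tumours. On one side the adjacent bin differed by 0.686 percentage points. On the other the adjacent bin, without a protein-coding gene, differed by -2.17, the most negative of the 20, with 4.94% in sFlk1 and 7.11% in empty vector tumours. Averaged over these 3 bins (900 kb), the difference was 0.326 percentage points (limma adjusted p = 0.899).

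Egln1 had the widest difference downward. The values were 3.39%, 4.16% and 3.62% in sFlk1 and 7.91%, 3.97% and 4.65% in empty vector tumours. The groups overlapped, and empty vector tumour 1 lay far above the rest. The difference was -1.78 percentage points (SE 1.10, limma adjusted p = 0.740, exact permutation p = 0.20), and -0.584 without that tumour. Egln2 gave 2.64%, 3.05% and 2.91% against 4.40%, 3.85% and 3.19%. Every sFlk1 tumour was below every empty vector tumour, as in 8.24% of all bins, with a difference of -0.947 (SE 0.679, limma adjusted p = 0.775, exact permutation p = 0.10). Genome-wide means were 2.39% to 2.52% in sFlk1 and 2.57% to 2.86% in empty vector tumours. In units of them Egln2 held 1.16 ± 0.0607 and 1.42 ± 0.156 times, again without overlap of the ranges (exact permutation p = 0.10).

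The remaining genes differed by less than Egln2 in size, and none passed. Vhl held 4.03%, 4.11% and 5.37% against 5.03%, 4.82% and 5.27% (difference -0.536, SE 0.877), and Hif1an 2.27%, 1.06% and 2.87% against 3.51%, 2.65% and 2.25% (-0.742, SE 0.594). Both HIF alpha genes had a higher mean in sFlk1 tumours. Hif1a held 3.59%, 3.97% and 3.55% against 3.77%, 2.84% and 3.67% (0.274, SE 0.702), and Epas1 3.58%, 4.38% and 4.96% against 4.24%, 3.13% and 3.55% (0.662, SE 0.774). In units of the genome-wide mean Epas1 held 1.75 ± 0.238 times in sFlk1 and 1.36 ± 0.144 times in empty vector tumours (SD, n = 3 each). On that scale the ranges did not overlap, and the exact permutation p was 0.10, the smallest possible. Adjusted p-values by limma were 0.816 to 0.954 for these 4 genes.

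**Figure D3:**
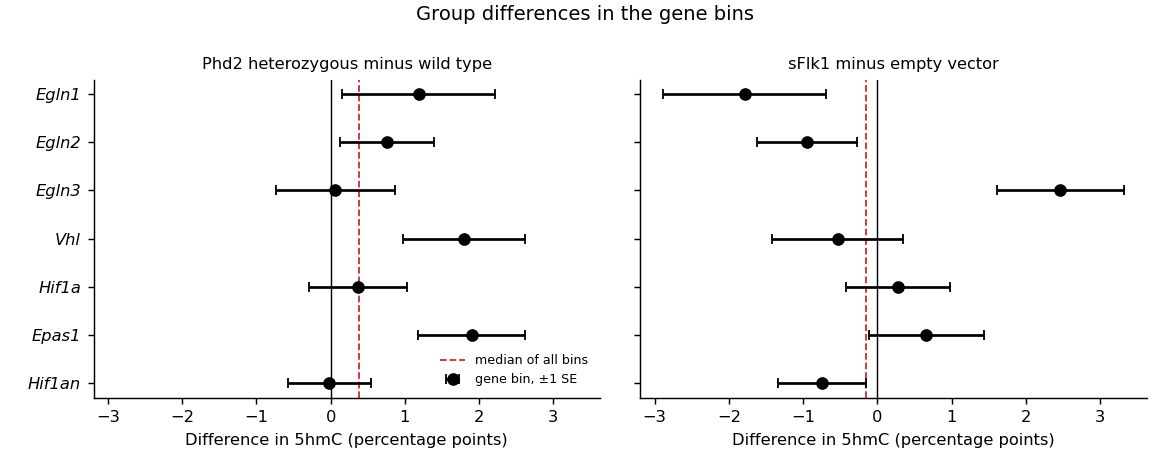
Difference in 5hmC in percentage points (horizontal axis) for each gene's bin, heterozygous minus wild type on the left and sFlk1 minus empty vector on the right, with limma's SE as whiskers; the dashed line is the median of all bins. Egln3 stands near 0 on the left and at 2.46 on the right, and Epas1 lies above 0 in both.

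Taking both models together, the better oxygenated arm (heterozygous, empty vector) was set against the less oxygenated arm (wild type, sFlk1). The arms are named by the labels' descriptions. The mean of both differences was above 0 at 6 genes, as at 72.3% of all bins, and below 0 at Egln3. In the highest level class 92.9% of bins were above 0, and 88.6% in the class below it. It was 1.49 percentage points at Egln1 (SE 0.752), 1.17 at Vhl (SE 0.601), 0.854 at Egln2 (SE 0.465) and -1.20 at Egln3 (SE 0.585). Without empty vector tumour 1 it was 0.886 at Egln1, and without heterozygous tumour 2 it was 0.762 at Vhl. Limma called 0 of 7 genes and 0.0117% of all bins, and at an unadjusted p under 0.05, 0 of 7 genes were higher and 0 lower, against 12.0% and 1.06% of all bins. The lowest adjusted p was 0.385. The exact permutation within models gave p = 0.0371 at Egln2, 0.0514 at Vhl, 0.126 at Egln3 and 0.151 at Egln1, before any adjustment. On percentages 21 such exact tests were made over the 7 genes and 3 comparisons, and Egln2 was the 1 under 0.05. Relative to the genome-wide mean the value at Egln2 was 0.506, and the 1 gene under 0.05 of 21 tests was Egln3 (exact permutation p = 0.0257, lower in the better oxygenated arm). The genome-wide mean itself differed by 0.373 percentage points (exact permutation p = 0.00571). At Egln3 the mean of both differences was -1.20, and 8 of 8576 bins had a lower value. This value came from the sFlk1 model, where Egln3 was higher in sFlk1 tumours by 2.46 percentage points. In the Phd2 comparison Egln3 differed by 0.0665, which is not against the direction of the genome-wide mean.

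The difference between models was tested directly, as heterozygous minus wild type less empty vector minus sFlk1. Limma called 0 of 7 genes, against 0.0117% of all bins. At an unadjusted p under 0.05 there were 2 of 7, Epas1 and Egln3, against 4.98% of all bins. Epas1 differed by 2.56 percentage points (SE 1.06, limma adjusted p = 0.927), being higher in heterozygous and also in sFlk1 tumours than in their controls. Egln3 differed by 2.53 (SE 1.17, limma adjusted p = 0.927).

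The bins of 27 other genes of the pathway, each in a bin of its own, had a median level of 4.14%. In the Phd2 comparison limma called 0 of 27 in either direction. At an unadjusted p under 0.05 there were 5 of 27, all higher (10.4% of all bins were higher at that p), and 26 of 27 had a higher mean in heterozygous tumours, with a median difference of 0.965 percentage points. That count is near the background of bins this rich in 5hmC, of which 90.4% to 95.3% were higher in the 2 highest level classes, against 75.1% of all bins. The counts of each list that follow have the same background in the Phd2 comparison. In the sFlk1 comparison limma called 0 of 27 in either direction, and 0 had an unadjusted p under 0.05, against 7.18% of all bins. There 13 were higher and 14 lower, with a median difference of -0.0374. Of all bins 40.3% were higher and 59.5% lower in sFlk1 tumours, and 26.4% to 34.1% were higher in the 2 highest level classes. The sFlk1 counts of each list that follow have this background.

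Of the partners of VHL in its ligase, 4 of 4 were higher in heterozygous tumours. The RING subunit gene Rbx1 held 4.87% ± 1.01 (SD, n = 4) against 3.83% ± 1.29 (SD, n = 3), and the elongin C gene Eloc 4.05% ± 0.542 against 3.02% ± 1.58. In sFlk1 tumours 3 of 4 were lower, with 2.53% ± 0.533 against 3.82% ± 1.53 at the scaffold gene Cul2 and 2.32% ± 0.800 against 3.15% ± 0.737 at the elongin B gene Elob. None of these passed (limma adjusted p of 0.577 or more).

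Among the dimer partners and the third alpha subunit, 2 of 3 genes were higher in heterozygous tumours. Arnt, the constitutive partner of HIF alpha, held 5.12% ± 0.751 (SD, n = 4) against 3.47% ± 0.768 (SD, n = 3), which differ by 1.65 percentage points with an SE of 0.710 (limma adjusted p = 0.419). Hif3a, the third alpha subunit, held 3.51% ± 0.456 against 2.55% ± 0.944. In sFlk1 tumours Hif3a had 2.77% ± 0.928 against 3.38% ± 0.945 (SD, n = 3 each) and Arnt2 3.51% ± 1.48 against 3.28% ± 1.91.

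Co-activators and their competitor were higher in heterozygous tumours for 4 of 4 genes. Ncoa1, a steroid receptor co-activator, held 7.40% ± 1.04 (SD, n = 4) against 4.85% ± 1.29 (SD, n = 3), which differ by 2.55 percentage points with an SE of 0.859 (limma adjusted p = 0.342). The groups did not overlap, as in 11.0% of all bins. Cited2, whose product competes with HIF alpha for p300, held 4.38% ± 1.30 against 3.13% ± 1.07. In sFlk1 tumours all 4 were lower, with differences of -0.405 percentage points at Ep300 (4.52% against 4.93%) and -0.492 at Cited2 (3.53% against 4.02%).

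Other regulators of HIF alpha were higher in heterozygous tumours for 6 of 6. Siah1a, a ubiquitin ligase that targets prolyl hydroxylases, held 6.38% ± 1.30 (SD, n = 4) against 4.12% ± 0.907 (SD, n = 3), which differ by 2.25 percentage points with an SE of 0.818 (limma adjusted p = 0.350). Os9, whose product binds HIF-1α and prolyl hydroxylases, held 5.18% ± 0.898 against 3.27% ± 0.524 (difference 1.91, SE 0.734, limma adjusted p = 0.360). Neither pair of groups overlapped, as in 11.0% of all bins. In sFlk1 tumours 4 of 6 were higher, with 2.52% ± 0.110 against 1.86% ± 0.343 (SD, n = 3 each) at Rack1, and Os9 was lower with 3.87% ± 0.698 against 4.63% ± 1.45.

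Enzymes that make or use 2-oxoglutarate, the co-substrate of the hydroxylases, and the succinate, fumarate and 2-hydroxyglutarate that inhibit them had a higher mean in heterozygous tumours for 10 of 10, and limma called 0 (lowest adjusted p = 0.502). Idh1, an isocitrate dehydrogenase, held 3.95% ± 0.551 (SD, n = 4) against 2.90% ± 1.01 (SD, n = 3), and the fumarate hydratase gene Fh1 2.58% ± 0.308 against 1.71% ± 0.835. In sFlk1 tumours 6 of 10 were higher. Fh1 held 2.16% ± 0.129 against 1.32% ± 0.285 (SD, n = 3 each) without overlap, as in 3.43% of all bins (limma adjusted p = 0.740), and the succinate dehydrogenase gene Sdhb 4.27% ± 2.94 against 3.54% ± 1.22.

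**Figure D4:**
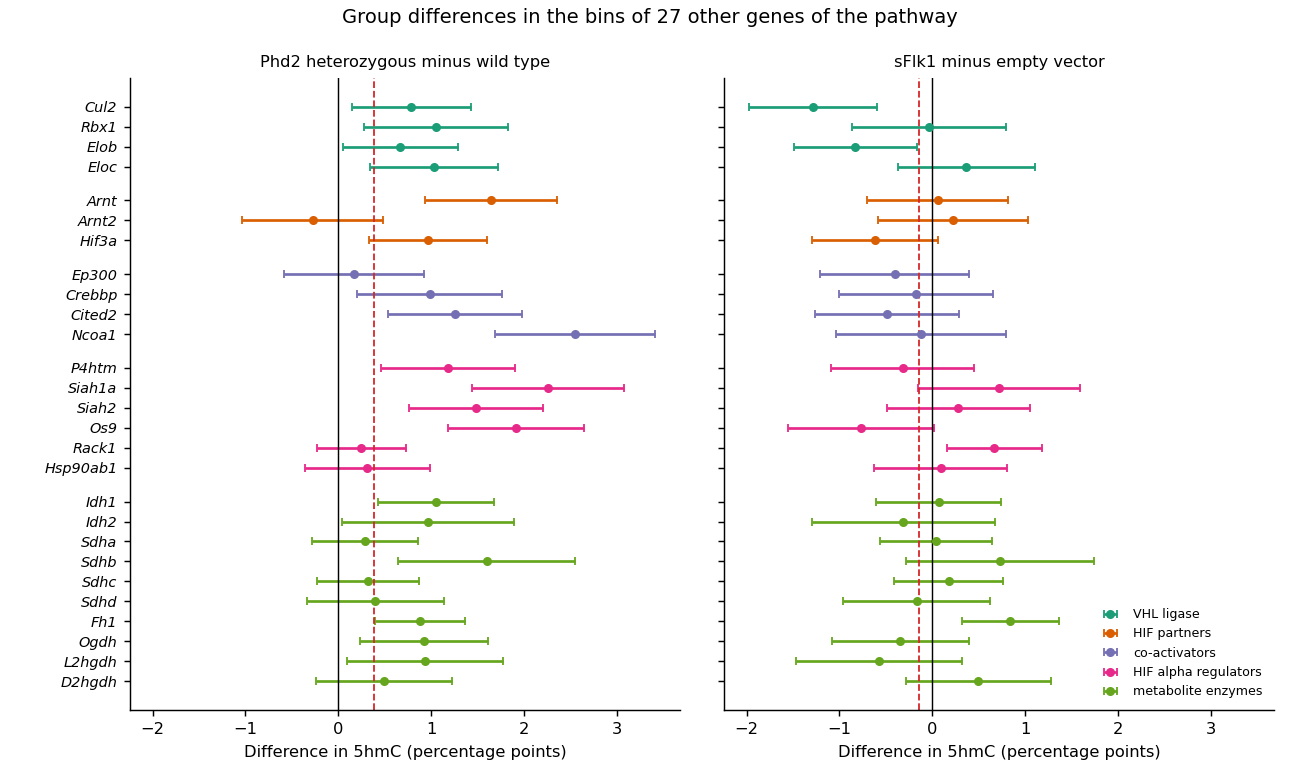
Difference in 5hmC in percentage points (horizontal axis) with limma's SE for the bins of 27 other genes of the pathway, coloured by list, in both comparisons; the dashed line is the median of all bins. On the left 26 of 27 points lie above 0, and on the right 13 lie above and 14 below.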

How the data were processed

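5hmC was measured by TAB-seq in 13 PyMT tumours, with extraction in buffers holding 200 µM DFO, per the labels' protocols. Values are in percent, as deposited by the authors in a single table of 300 kb bins by tumour. The submitters' processing notes list Bismark 0.13.1 and the build mm9, with no role. How sites were pooled within bins, and with what coverage minimum, is not given in the sources used here. The last bin of each chromosome ends at the GRCm38 length, so genes were placed with RefSeq GRCm38.p6. Groups came from titles and columns from descriptions. Bins of chromosomes 1 to 19 and X not at 0 in all tumours were kept (8576).

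All bins were fitted with limma 3.58.1 (R 4.3.3) on percentages, 4 group means, all 13 tumours, mean-variance trend, Benjamini-Hochberg adjustment over all bins, threshold 0.05; SEs are limma's. Single bins were also tested by exact two-sided permutation, within models for both together. p-values measure the spread between tumours. The fit was tested on simulated data of 8576 bins. Of 200 bins raised by 2 percentage points it recovered 42% in the Phd2 and 39.5% in the sFlk1 design. Of those raised by 4 it recovered 90.5% and 91%. The simulated noise was drawn for each bin separately, while bins of a real tumour share its genome-wide level. Recovery was also not split by level or spread, so these shares do not give the power at the bins of the genes described here. In the sFlk1 comparison Egln3 differed by 2.46 percentage points (SE 0.855) and had a limma adjusted p of 0.544. Level classes divide the bins by mean into 5 equal parts. Pathway genes named are the 2 of each list with the smallest limma p in each comparison, and like bins the 2 with the highest Pearson r on another chromosome among bins above 0 in all tumours. Some further genes among neighbours and pairs were named after their values were seen. Members and lists were chosen with earlier results of these data known. Alternatives were other scales, scaling, filters, windows, fits, a block and each tumour left out.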

Additional observations from a re-analysis of the deposited data

How the results depend on the processing

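Limma called 0 of the 7 genes and 0 of the 27 pathway genes in each comparison under every alternative run: log2 (percentage + 0.5) and arcsine scales, scaling to the tumour's mean or median bin, bins above 0 in all tumours, the lowest 10% of bins left out, only the contrast's groups, no trend, 900 kb running means, the replicate block and each tumour left out (the pathway genes were added to these after seeing the data). A coverage minimum could not be tried without read counts, and every bin that a gene body overlaps is the same bin as in the rule. Same-numbered tumours did not deviate together (r of -0.0934 to -0.00429 over 6 pairs, and 0 of 12 tumours correlated best with their own number). With the number as a block the call stayed at 0 of 7 and genes at an unadjusted p under 0.05 in the Phd2 comparison went from 2 to 3, while Egln3 in the Phd2 comparison was -0.187 and Egln1 in the difference between models 0.387.

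Levels over 900 kb were 3.45% at Vhl and 3.22% at Hif1an, beyond the SD of the single bins; for both, the adjacent bins differ from the gene's own. Differences of uncalled genes changed sign as follows, and the cause was not tested. Relative to the genome-wide mean, the Phd2 difference was -0.0490 at Egln2, -0.671 at Egln3 and -0.353 at Hif1a, and over both models -0.471 at Hif1a and -0.0391 at Epas1. Relative to the median bin it was -0.571 at Egln3 and -0.268 at Hif1a, and over both models -0.417 at Hif1a. Over 900 kb it was 0.530 at Hif1an in the Phd2 and -0.489 at Hif1a in the sFlk1 comparison, 0.194 at Egln3 over both models, and between models 0.120 at Egln1, 0.0214 at Egln2 and -0.202 at Hif1a. With each tumour left out in turn, signs changed in the Phd2 comparison at Egln3 (-0.556 to 0.489) and Hif1an (-0.258 to 0.218), in the sFlk1 comparison at Hif1a (-0.0203 to 0.446), over both models at Hif1a (-0.130 to 0.291), and between models at Egln1 (-1.50 to 0.605) and Egln2 (-0.624 to 0.416). The sFlk1 difference at Egln3 stayed between 1.99 and 3.22, and the Phd2 difference at Epas1 between 1.33 and 2.24. Unknown depth, 3 or 4 tumours a group and bins far wider than the genes limit all values.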
